A study of Rattus norvegicus with 27 samples.

Results

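*Sorbs2*, *Lmo7* and 7 adaptor genes of focal adhesions (*Sorbs3*, *Vcl*, *Pxn*, *Tln1*, *Zyx*, *Tns1* and *Tns3*) were followed in cultured rat Schwann cells through differentiation with dibutyryl cyclic AMP (dbcAMP, a cell-permeable cyclic AMP analogue) and after its withdrawal. They are 9 of the 17315 genes in a table of cell mRNA, taken by gene symbol, and all 9 had counts enough to be tested. *Sorbs2* and *Lmo7* were chosen by their measured mRNA levels, which were much lower under dbcAMP or stayed low after withdrawal, so their values are a description without a test. The other 7 were taken by name as adhesion adaptors and were tested with edgeR among 10372 genes. They too were taken with earlier results of these data known.

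The cells were primary rat Schwann cells bought from a supplier and used at passages 3 to 5, and the labels name no transgene or deletion. There were 3 stages, each with 3 mRNA libraries numbered as biological replicates. Undifferentiated cells were controls kept without dbcAMP, and their medium at harvest is not otherwise stated in the labels. Differentiated cells, described in the labels as moving toward myelinating cells, had a night in starvation medium and then 72 h with 1 mM dbcAMP in DMEM with 1% exosome-depleted serum. Dedifferentiated cells had the same 72 h with dbcAMP and then 72 h without it in a complete medium with 10% exosome-depleted serum, forskolin (an activator of adenylyl cyclase) and neuregulin (a Schwann cell growth factor). Medium and stage changed together in the differentiated and dedifferentiated cells, so their parts in a difference cannot be told apart. Labels do not say whether replicates were separate cultures or supplier lots, and p-values measure the spread between these libraries.

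Focal adhesions are sites at which integrins, receptors for matrix proteins, are coupled through layers of adaptor proteins to actin. Talin (*Tln1*) binds integrin tails and actin, vinculin (*Vcl*) strengthens that link, paxillin (*Pxn*) is a scaffold for kinases, and zyxin (*Zyx*) is a LIM-domain protein that gathers at adhesions and stress fibres under tension. Vinexin (*Sorbs3*) and ArgBP2 (*Sorbs2*) belong to the sorbin-homology family that binds vinculin, tensins (*Tns1* and *Tns3*) bind integrin tails and actin, and *Lmo7* encodes a LIM-domain protein of cell junctions and adhesions that binds afadin and emerin. In Schwann cells, adhesion to laminin through beta 1 integrins is needed for the sorting and myelination of axons, and cyclic AMP drives expression of myelin genes.

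Promoter sequence is shown for *Lmo7*, one of the genes picked for its low level under dbcAMP, and for *Zyx* and *Vcl*, adaptors that moved in opposite directions under dbcAMP. Each is the 250 bases before a RefSeq transcript start in build GRCr8, written 5′ to 3′ on the gene's strand. The *Lmo7* window is chr15:84981532-84981781 on the plus strand, the *Vcl* window chr15:3404801-3405050 on the minus strand and the *Zyx* window, the first of 2 listed, chr4:72203750-72203999 on the plus strand. Capitals mark matches on either strand to GGGCGG, the GC box of Sp1-type factors, and to GGAATG, a core of TEAD binding sites.
Lmo7: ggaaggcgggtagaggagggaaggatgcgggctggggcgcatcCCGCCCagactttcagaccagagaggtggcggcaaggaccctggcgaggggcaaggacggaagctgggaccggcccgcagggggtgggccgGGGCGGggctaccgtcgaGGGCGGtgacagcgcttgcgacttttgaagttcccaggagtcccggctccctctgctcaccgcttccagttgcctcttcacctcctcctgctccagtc
Zyx: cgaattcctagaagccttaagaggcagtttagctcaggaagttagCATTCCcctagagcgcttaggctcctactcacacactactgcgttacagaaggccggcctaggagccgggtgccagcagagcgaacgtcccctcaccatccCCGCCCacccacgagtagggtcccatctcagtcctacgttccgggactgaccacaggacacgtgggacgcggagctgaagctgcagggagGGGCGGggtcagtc
Vcl: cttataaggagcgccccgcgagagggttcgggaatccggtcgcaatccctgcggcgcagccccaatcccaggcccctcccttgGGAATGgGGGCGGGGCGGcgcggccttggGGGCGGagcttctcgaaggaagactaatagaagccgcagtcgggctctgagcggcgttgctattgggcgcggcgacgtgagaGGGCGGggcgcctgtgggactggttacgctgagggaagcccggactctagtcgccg
RefSeq promoters were found for 6 of the 9 genes (*Lmo7*, *Tln1*, *Vcl*, *Pxn*, *Zyx* and *Tns3*, 8 windows in all). The 2 windows of *Pxn*, chr12:46768680-46768929 and chr12:46768698-46768947, share most of their bases, so the 8 windows are not all separate sequences. Each motif named here was searched on both strands. GGAATG occurred in 2 of the 8 windows, 1 each of *Vcl* and *Zyx*, and in 12.1% of all 33465 rat promoter windows of this length. GGGCGG occurred in 5 of the 8 windows and in 30.5% of all, with 3 matches in *Lmo7*, 2 in the printed *Zyx* window and 4 in *Vcl*, where the first 2 overlap by a base. The cyclic AMP response element TGACGTCA (1.59% of all windows), its core TGACG (18.2%), the AP-1 site TGANTCA (6.34%) and the CArG box bound by SRF (1.5%) had 0 matches in the 8 windows. TGACG is contained in TGACGTCA. No match says only that these letters are not in these 250 bases.

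Library totals ran from 10058735 to 16212278 estimated counts, with 11282 to 11833 genes detected. Levels are given as CPM, counts scaled to the library total, on which 3 counts correspond to 0.185 to 0.298 CPM, so every level of the 9 genes lay well above the counting floor. Gene lengths were not used, so levels are compared between stages and not between genes. All 8 Schwann cell markers examined, among them *S100b* and *Sox10*, averaged over 1 CPM at each stage. Their sum was 6922 to 8534 CPM in undifferentiated cells, 6813 to 9470 CPM under dbcAMP and 10632 to 13045 CPM after withdrawal. Single markers moved in opposite directions under dbcAMP. Means of *Ngfr* (4423 to 1148 CPM), *Cdh19*, *Gfap* and *Sox10* were lower, and those of *Mbp* (178 to 2821 CPM), *Egr2*, *S100b* and *Erbb3* higher. Of 10 fibroblast markers, 5 (*Col1a1*, *Col1a2*, *Col3a1*, *Pdgfrb* and *Postn*) averaged over 1 CPM at every stage. The sum of all 10 was 24670 to 29361, 13698 to 17553 and 16422 to 19930 CPM in the same order. Its undifferentiated libraries were highest, as for *Sorbs2*, *Lmo7*, *Zyx*, *Pxn* and *Tln1*, while the later stages overlapped. The largest terms in that sum were *Col1a1* and *Col1a2*, with means of 17153 and 8981 CPM in undifferentiated cells and 6697 and 7252 CPM under dbcAMP. *Postn*, *Pdgfrb* and *Col3a1* went the other way under dbcAMP, from means of 136 to 997, 136 to 674 and 53.2 to 92.0 CPM. Of the 5 fibroblast markers that averaged under 1 CPM, *Lum* was at 0 in every library, *Fap* reached at most 0.295 CPM, *Pdgfra* and *Dcn* 0.884 CPM and *Thy1* 1.92 CPM. Summed markers of smooth muscle and pericytes (58.7 to 69.9, 34.5 to 77.1 and 36.2 to 83.0 CPM) overlapped between stages, with *Rgs5* and *Kcnj8* at 0. Endothelial markers summed to 1.21 to 3.08, 6.78 to 9.11 and 11.9 to 22.5 CPM, the order of stages of *Tns1*, with *Cdh5* and *Cldn5* at 0. Of these markers *Vwf* rose after withdrawal (means 0, 0.919 and 10.1 CPM), while *Tek* was highest under dbcAMP (1.26, 6.61 and 5.23 CPM). *Pecam1*, *Kdr* and *Emcn* averaged at most 0.512 CPM at any stage. Macrophage markers summed to 0.322 to 1.64, 3.64 to 5.09 and 1.88 to 3.65 CPM, with *Aif1*, *Adgre1* and *C1qa* at 0. Of 6 neuronal markers *Nefm* alone averaged over 1 CPM, and the sum was 119 to 284, 496 to 641 and 171 to 208 CPM, highest under dbcAMP as for *Vcl* and *Sorbs3*. The part of these marker levels in the results was not tested. In bulk RNA, fewer cells of a type and less RNA per cell cannot be told apart.

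*Sorbs2* was abundant in undifferentiated cells, very low under dbcAMP and partly back after withdrawal. It measured 272, 299 and 298 CPM in undifferentiated replicates 1, 2 and 3. Under dbcAMP the same measure was 6.93, 7.10 and 8.76 CPM. After withdrawal it was 127, 118 and 136 CPM. The 3 stages did not overlap, in the order undifferentiated, dedifferentiated, differentiated. Means were 290 ± 15.0, 127 ± 9.02 and 7.59 ± 1.01 CPM in that order (SD, n = 3), so differentiated cells held 2.62% and dedifferentiated cells 44.0% of the undifferentiated level. Differences are given as the edgeR log2 change with its standard error (SE). That of *Sorbs2* was -5.31 under dbcAMP (SE 0.109), the 63rd lowest of the 10372 genes tested, 4.07 on withdrawal (SE 0.105) and -1.23 between dedifferentiated and undifferentiated cells (SE 0.0876). The log2 change from undifferentiated cells 72 h after withdrawal was 23.2% of that under dbcAMP.

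*Lmo7* was also lower under dbcAMP and stayed low after withdrawal. Undifferentiated replicates 1, 2 and 3 measured 81.9, 91.8 and 97.3 CPM. Differentiated replicates measured 20.3, 22.4 and 20.1 CPM, and dedifferentiated replicates 28.5, 22.7 and 22.6 CPM. All 6 libraries exposed to dbcAMP lay far below the 3 undifferentiated ones, while the lowest dedifferentiated library nearly touched the highest differentiated one. Means were 90.3 ± 7.82, 20.9 ± 1.25 and 24.6 ± 3.39 CPM for undifferentiated, differentiated and dedifferentiated cells (SD, n = 3). The log2 change was -2.17 under dbcAMP (SE 0.111), 0.25 on withdrawal (SE 0.113) and -1.92 between dedifferentiated and undifferentiated cells (SE 0.111). That last change was the 106th lowest of all genes tested, against the 303rd for *Sorbs2*. After withdrawal *Lmo7* stood at 27.2% of its undifferentiated level, against 23.2% under dbcAMP. Its log2 change from undifferentiated cells was then 88.7% of that under dbcAMP.

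**Figure D1:**
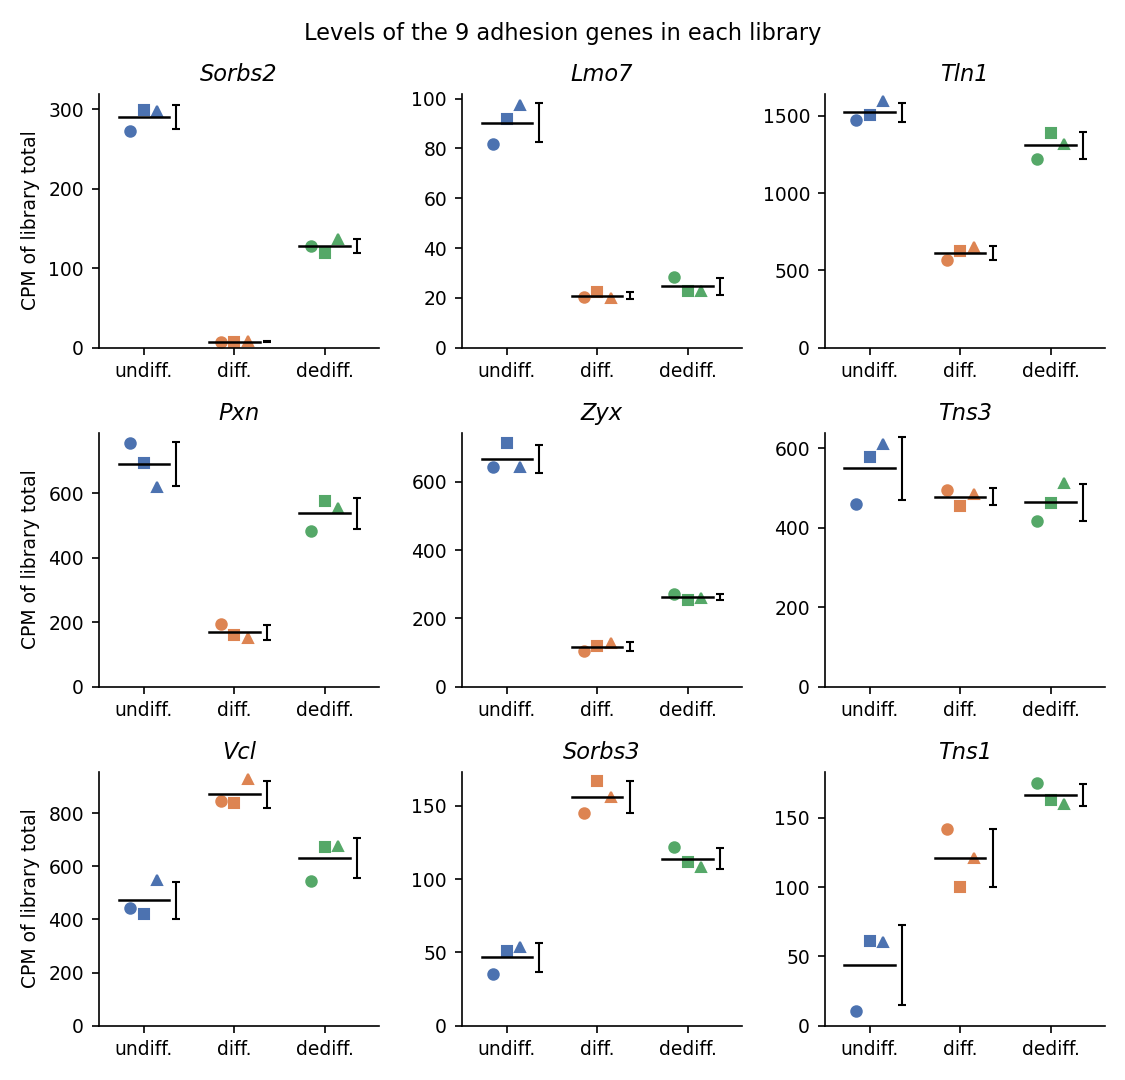
CPM of the 9 genes, 1 panel per gene with its own axis from 0, in undifferentiated, differentiated and dedifferentiated libraries. Symbols are single libraries (circle, square and triangle for replicates 1, 2 and 3), black lines are means and bars are SD (n = 3); *Sorbs2* at 6.93 to 8.76 CPM under dbcAMP and *Tns1* at 10.3 CPM in undifferentiated replicate 1 stand apart from their other values.

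The 7 adaptors taken by name did not move as a block. Under dbcAMP 3 rose (*Sorbs3*, *Vcl* and *Tns1*), 3 fell (*Zyx*, *Pxn* and *Tln1*) and *Tns3* was not called, where a call is an edgeR adjusted p under 0.05. Of all genes tested, 59.6% were called in this contrast, 31.7% higher and 27.9% lower, so 6 calls among 7 genes are read as a description of those genes. On withdrawal 3 rose (*Pxn*, *Zyx* and *Tln1*), 2 fell (*Sorbs3* and *Vcl*) and 2 were not called, beside 46.4% of all genes called (23.2% higher and 23.2% lower). Between dedifferentiated and undifferentiated cells 3 were higher (*Tns1*, *Sorbs3* and *Vcl*), 3 lower (*Zyx*, *Pxn* and *Tln1*) and *Tns3* was not called, beside 29.4% of all genes called (16.1% higher and 13.3% lower). The 3 contrasts share libraries, so a gene's change in one is not independent of its change in another. Libraries of the 2 stages compared did not overlap for 6, 6 and 5 of these 7 genes in the 3 contrasts, beside 66.3%, 58.5% and 43.9% of all genes tested.

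Talin and vinculin, which bind each other at the integrin-actin link, changed in opposite directions. *Tln1* measured 1471, 1503 and 1592 CPM in undifferentiated replicates 1, 2 and 3. It measured 564, 625 and 654 CPM under dbcAMP and 1218, 1387 and 1320 CPM after withdrawal. The 3 stages did not overlap, and withdrawal brought *Tln1* most of the way back. It fell by 1.37 on the log2 scale under dbcAMP (SE 0.0866; edgeR adjusted p = 3.17e-07) and rose by 1.10 on withdrawal (SE 0.0861; edgeR adjusted p = 4.14e-06). Its remaining difference from undifferentiated cells was small (log2 change -0.27, SE 0.0851; edgeR adjusted p = 0.0374). That call was lost with library size alone as scaling (edgeR adjusted p = 0.0924) and when any of 6 libraries was left out. These were the 3 undifferentiated libraries, differentiated replicate 2 and dedifferentiated replicates 1 and 3 (edgeR adjusted p from 0.0534 to 0.104).

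*Vcl* measured 444, 421 and 550 CPM in undifferentiated replicates 1, 2 and 3. Under dbcAMP it measured 845, 839 and 931 CPM, and after withdrawal 545, 674 and 678 CPM. Differentiated libraries were the highest, while the lowest dedifferentiated library lay just under the highest undifferentiated one. *Vcl* rose by 0.83 on the log2 scale under dbcAMP (SE 0.114; edgeR adjusted p = 0.000106) and fell by 0.45 on withdrawal (SE 0.113; edgeR adjusted p = 0.008). It remained 0.38 higher than in undifferentiated cells (SE 0.113; edgeR adjusted p = 0.0296). That last call was lost without undifferentiated replicate 1 or 2 or dedifferentiated replicate 2 or 3 (edgeR adjusted p from 0.0681 to 0.147). With replicates 1 and 2 of each stage only it was also lost (edgeR adjusted p = 0.0981), as was the fall on withdrawal (edgeR adjusted p = 0.0577). The number of *Vcl* counts per *Tln1* count within a library was 0.280 to 0.345 in undifferentiated cells, 1.34 to 1.5 under dbcAMP and 0.447 to 0.514 after withdrawal, with no overlap between stages.

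The scaffold paxillin and the LIM protein zyxin both fell under dbcAMP and came back to different extents. *Pxn* measured 757, 693 and 620 CPM in undifferentiated replicates 1, 2 and 3. Under dbcAMP it measured 196, 161 and 150 CPM, and after withdrawal 484, 577 and 553 CPM. The 3 stages did not overlap. *Pxn* fell by 2.09 on the log2 scale under dbcAMP (SE 0.134; edgeR adjusted p = 3.63e-07) and rose by 1.68 on withdrawal (SE 0.133; edgeR adjusted p = 4.49e-06). Its difference between dedifferentiated and undifferentiated cells was -0.41 (SE 0.129; edgeR adjusted p = 0.0351), a call lost without undifferentiated replicate 1 or 2 or dedifferentiated replicate 1 or 3 (edgeR adjusted p from 0.0701 to 0.103).

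*Zyx* measured 645, 714 and 643 CPM in undifferentiated replicates 1, 2 and 3. Under dbcAMP it measured 104, 120 and 129 CPM, and after withdrawal 272, 254 and 259 CPM. The stages were far apart, and each dedifferentiated library was below every undifferentiated one. Stage means were 667 ± 40.5, 117 ± 12.7 and 262 ± 9.03 CPM (SD, n = 3), so *Zyx* stood at 17.6% of its undifferentiated level under dbcAMP and at 39.2% after withdrawal. *Zyx* fell by 2.57 on the log2 scale under dbcAMP (SE 0.0955; edgeR adjusted p = 9.06e-09), rose by 1.17 on withdrawal (SE 0.0919; edgeR adjusted p = 4.30e-06) and remained 1.40 lower than in undifferentiated cells (log2 change -1.40, SE 0.0917; edgeR adjusted p = 3.03e-06). It was the one adaptor of the 7 whose 3 calls held under every alternative analysis run. Counts of *Vcl* per count of *Zyx* were 0.590 to 0.856 in undifferentiated cells, 7.00 to 8.15 under dbcAMP and 2.01 to 2.66 after withdrawal.

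Vinexin, the family relative of ArgBP2, had the opposite pattern to it under dbcAMP. *Sorbs3* measured 35.5, 50.7 and 53.7 CPM in undifferentiated replicates 1, 2 and 3. Under dbcAMP it measured 145, 167 and 156 CPM, and after withdrawal 122, 112 and 108 CPM. The stages did not overlap, and dedifferentiated libraries stayed nearer to differentiated than to undifferentiated ones. *Sorbs3* rose by 1.68 on the log2 scale under dbcAMP (SE 0.128; edgeR adjusted p = 1.29e-06) and remained 1.24 higher than in undifferentiated cells after withdrawal (SE 0.128; edgeR adjusted p = 4.96e-05). Its decrease on withdrawal was smaller (log2 change -0.44, SE 0.124; edgeR adjusted p = 0.0142) and was not called without differentiated replicate 2 or dedifferentiated replicate 3 (edgeR adjusted p = 0.0502 and 0.0582). That decrease was also not called with replicates 1 and 2 of each stage only (edgeR adjusted p = 0.127). Counts of *Sorbs3* per count of *Sorbs2* were 0.131 to 0.181 in undifferentiated cells, 17.8 to 23.5 under dbcAMP and 0.791 to 0.955 after withdrawal. As counts without a length correction, these ratios show the shift between stages and not which mRNA was the more abundant.

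**Figure D2:**
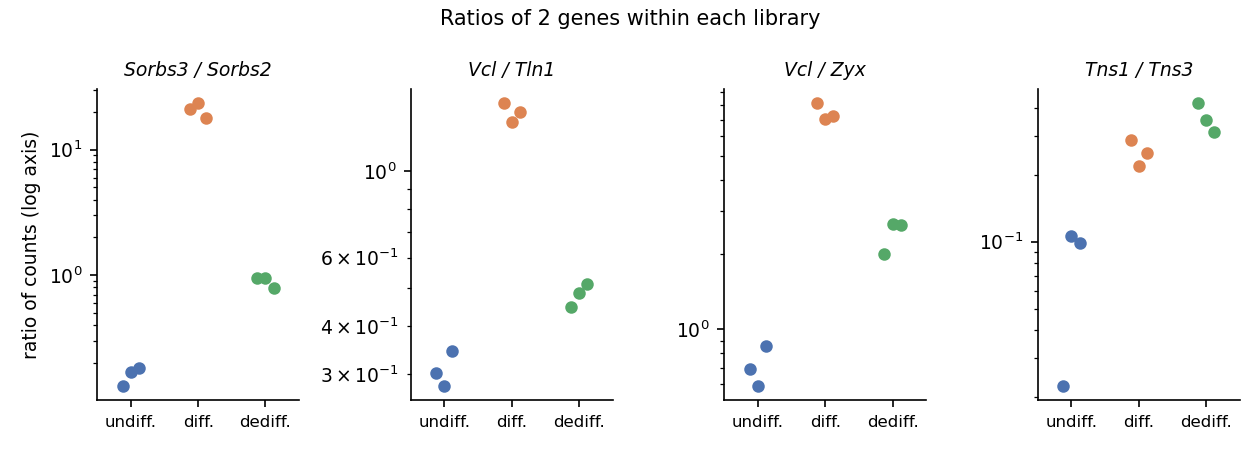
Ratio of the counts of 2 genes within each library, on a log axis, for 4 pairs of the 9 genes, with 1 circle per library (replicates 1, 2 and 3 from left to right). *Sorbs3* per *Sorbs2* runs from 0.131 to 0.181 in undifferentiated to between 17.8 and 23.5 in differentiated libraries, and back to between 0.791 and 0.955 after withdrawal.

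The tensins differed from each other. *Tns3* measured 460, 577 and 611 CPM in undifferentiated replicates 1, 2 and 3, 495, 454 and 484 CPM in differentiated and 417, 462 and 511 CPM in dedifferentiated ones. The 3 stages overlapped. Its log2 change was -0.26 under dbcAMP (95% interval -0.50 to -0.02; edgeR adjusted p = 0.0559), -0.03 on withdrawal (-0.27 to 0.20; edgeR adjusted p = 0.828) and -0.29 between dedifferentiated and undifferentiated cells (-0.53 to -0.06; edgeR adjusted p = 0.0633). The intervals are for 1 gene without adjustment. Without undifferentiated replicate 1, which held the lowest of the 3 undifferentiated values, *Tns3* was called lower in differentiated and in dedifferentiated than in undifferentiated cells (edgeR adjusted p = 0.00978 and 0.0148). The first was also called without dedifferentiated replicate 1 (edgeR adjusted p = 0.0259).

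*Tns1* measured 10.3, 61.0 and 60.2 CPM in undifferentiated replicates 1, 2 and 3, so that replicate 1 stood well below the other 2. Under dbcAMP it measured 142, 99.7 and 121 CPM, and after withdrawal 175, 163 and 160 CPM. Each stage lay above the one before it with no overlap. *Tns1* rose by 1.42 on the log2 scale under dbcAMP (SE 0.446; edgeR adjusted p = 0.0181) and was 1.89 higher in dedifferentiated than in undifferentiated cells (SE 0.450; edgeR adjusted p = 0.00985). The first call was lost without differentiated replicate 1 (log2 change 1.27; edgeR adjusted p = 0.0503). Both differences were smaller without undifferentiated replicate 1, at log2 changes of 0.96 and 1.43, and both were then still called. Neither was called with replicates 1 and 2 of each stage only (edgeR adjusted p = 0.0659 and 0.0699). Its change on withdrawal was 0.47 (95% interval -0.48 to 1.42; edgeR adjusted p = 0.395), and was called at the same size without undifferentiated replicate 1 (edgeR adjusted p = 0.00879), a library that enters this contrast only through the shared estimate of the spread. Counts of *Tns1* per count of *Tns3* were 0.0224, 0.106 and 0.0985 in undifferentiated replicates 1, 2 and 3, 0.220 to 0.287 under dbcAMP and 0.313 to 0.420 in dedifferentiated libraries.

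The log2 change from undifferentiated cells after withdrawal, as a percentage of that under dbcAMP, differed widely between genes. It was 19.5% for *Tln1*, 19.7% for *Pxn* and 23.2% for *Sorbs2*. It was 45.5% for *Vcl*, 54.5% for *Zyx*, 73.9% for *Sorbs3* and 88.7% for *Lmo7*. *Tns1* stood at 133%, which is a larger difference after withdrawal than under dbcAMP. *Tns3* is left out because neither of its changes was called. Both log2 changes use the same undifferentiated libraries, and no test of these percentages was made.

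**Figure D3:**
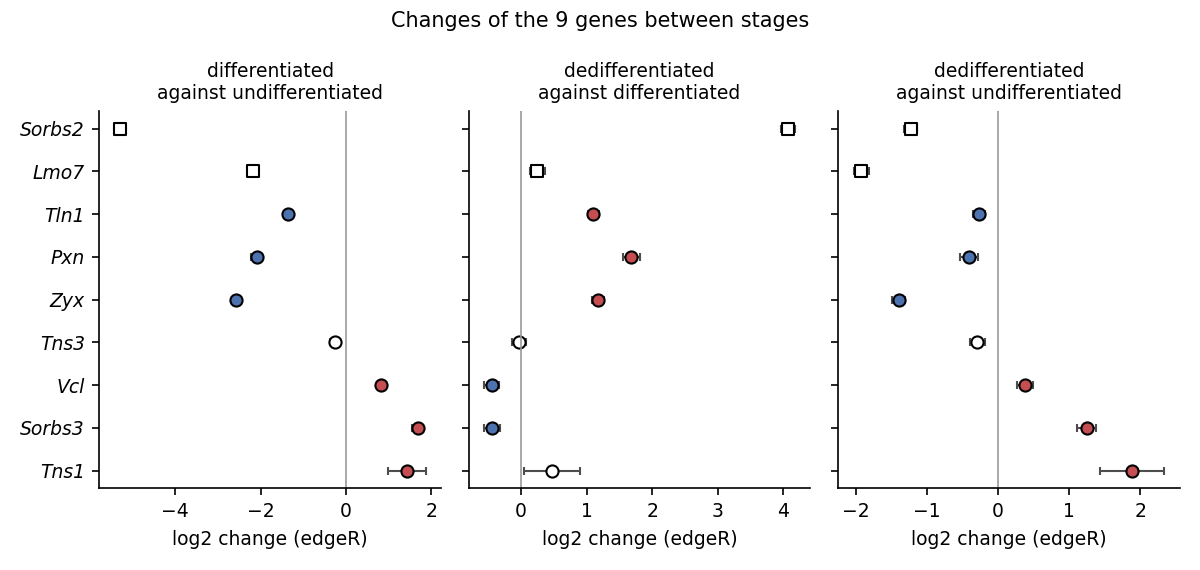
Log2 change of each of the 9 genes in the 3 contrasts, with bars of 1 SE from edgeR. Squares are *Sorbs2* and *Lmo7*, shown without a test, and circles the 7 other genes, red where higher, blue where lower and white where the edgeR adjusted p was 0.05 or more; under dbcAMP the values run from -5.31 for *Sorbs2* to 1.68 for *Sorbs3*.

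The replicates came from 2 sequencing projects named in the labels, with replicates 1 and 2 of each stage in one and replicate 3 in the other. Within each project, 26 of the 27 combinations of gene and contrast kept the same sign, and the exception was the change of *Tns3* on withdrawal (-0.11 and 0.08). *Sorbs2* had log2 changes under dbcAMP of -5.32 in the first project and -5.06 in the second. *Lmo7* had -2.02 and -2.27. *Tns1* had 2.24 and 1.00, the first of which contains the low undifferentiated replicate 1. With 1 library a stage in the second project, these values have no test.

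Genes of most like pattern were named by the root mean square difference in log2 CPM over the 9 libraries, each gene set to 0 at its undifferentiated mean, among 7747 genes. For *Sorbs2* they were *Fam131b* and *Pappa* (both 0.268), *Hdac9* (0.325), *Slitrk6* (0.329) and *Bdnf* (0.363). *Pappa*, a secreted protease that cleaves IGF-binding proteins, had a mean of 365 CPM in undifferentiated cells, 7.15 CPM under dbcAMP and 148 CPM after withdrawal. *Bdnf*, a neurotrophin, had 75.6, 2.67 and 33.1 CPM, and *Hdac9*, a class IIa histone deacetylase, 45.0, 1.32 and 24.6 CPM. All 5 had the order of stages of *Sorbs2*, which follows from their choice by likeness to it.

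For *Lmo7* the genes of most like pattern were *Emilin1* (0.159), *Crispld2* (0.239), *Igfbp5* (0.253), *Elk3* (0.286) and *Nell1* (0.311). *Emilin1*, an elastin-associated matrix glycoprotein, measured 114 CPM in undifferentiated cells, 28 CPM under dbcAMP and 31.1 CPM after withdrawal. *Igfbp5*, a secreted binder of insulin-like growth factors, measured 317, 89.5 and 76.8 CPM. *Elk3*, an ETS-family cofactor of SRF, measured 126, 29.3 and 41.7 CPM. Among the 9 genes themselves the nearest to *Lmo7* was *Zyx* (0.406), and *Tln1* and *Pxn* were nearest to each other (0.459). The nearest of the 9 to *Sorbs2* was *Zyx*, at 1.58. These distances describe 9 libraries of 3 stages, chosen for likeness, and carry no test.

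**Figure D4:**
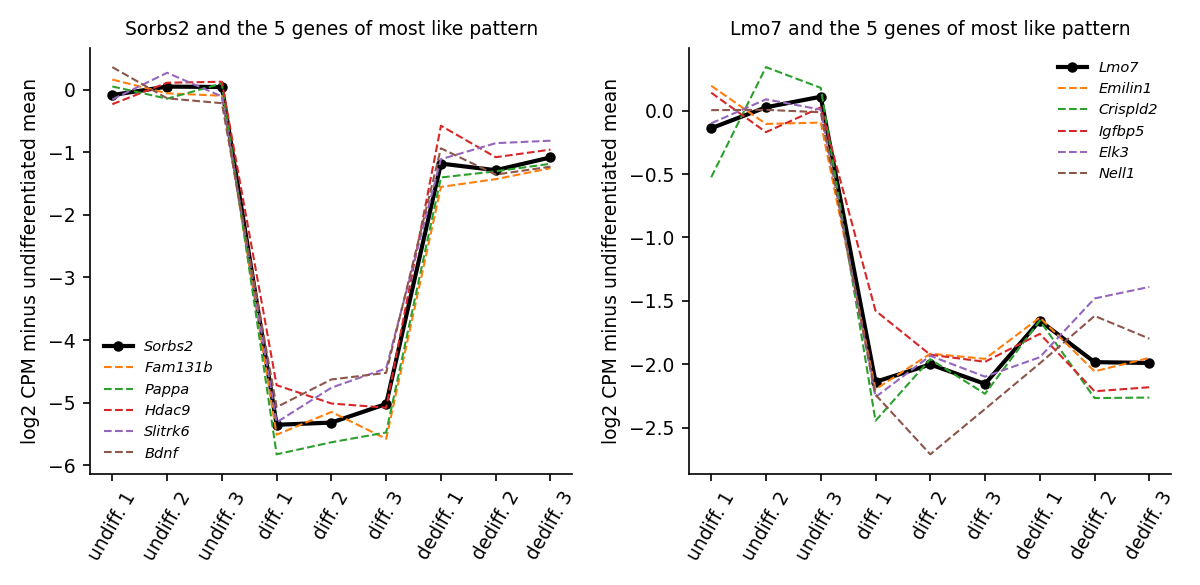
Log2 CPM minus the gene's undifferentiated mean in the 9 libraries, for *Sorbs2* with its 5 genes of most like pattern and for *Lmo7* with its own 5. The *Sorbs2* set is low under dbcAMP and partly back after withdrawal, as *Sorbs2* is at 44.0% of its undifferentiated level, and the *Lmo7* set stays low, as *Lmo7* is at 27.2%.

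The rest of the adhesion and actin machinery was read from 9 lists with 140 genes in all, none of them among the 9 genes followed, of which 128 were in the table and 115 were tested. Under dbcAMP 30 of the 115 rose, 58 fell and the median log2 change was -0.31, beside 31.7% higher, 27.9% lower and a median of 0.05 over all genes tested. On withdrawal 45 rose and 26 fell, with a median of 0.16, beside 23.2% higher, 23.2% lower and a median of -0.01 over all genes. Between dedifferentiated and undifferentiated cells 21 were higher and 40 lower, with a median of -0.14, beside 16.1%, 13.3% and 0.02 over all genes. No set test was made. *Tln2*, *Tns2*, *Mrtfa* and *Mrtfb*, relatives or regulators of these genes, were not analysed here, and *Tns4* reached a mean of at most 0.0501 CPM at any stage.

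Among integrin activators and links, 4 of 12 tested genes rose and 6 fell under dbcAMP (median log2 change -0.22), and on withdrawal 6 rose and 0 fell (median 0.41). *Lims2*, which encodes PINCH2, a partner of integrin-linked kinase, fell from 94.3 ± 9.75 to 2.72 ± 0.645 CPM (SD, n = 3; log2 change -5.19, edgeR adjusted p = 1.63e-08) and rose to 31.4 CPM on withdrawal. The talin-binding *Kank2* fell from 719 ± 37.4 to 175 ± 22.9 CPM (SD, n = 3; log2 change -2.10, edgeR adjusted p = 5.05e-08) and rose to 554 CPM. Its family member *Kank4* rose from 20.5 ± 15.1 to 283 ± 13.7 CPM (SD, n = 3; log2 change 3.73, edgeR adjusted p = 9.33e-05) and was still higher than in undifferentiated cells after withdrawal, at 190 CPM (log2 change 3.17). *Kank2* and *Kank4* were named for large changes in each direction, so their opposite signs follow from that choice. *Kank1* and *Kank3* were also called higher under dbcAMP, at 8.67 and 5.78 CPM. Their log2 changes were 1.42 and 1.07 (edgeR adjusted p = 0.00527 and 0.00449).

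Of 12 integrin receptor genes, 4 rose and 4 fell under dbcAMP (median 0.03). *Itgb3* and *Itga4* rose by 1.80 and 1.44 on the log2 scale, from 11.7 to 42.6 and from 21.3 to 60.4 CPM. The collagen receptor subunit *Itga1* fell from 149 to 31.8 CPM and the fibronectin receptor subunit *Itga5* from 54.7 to 30.2 CPM. On withdrawal *Itga1* rose again to 130 CPM (log2 change 2.05), whereas *Itga5* was still lower than in undifferentiated cells, at 31.6 CPM (log2 change -0.84, edgeR adjusted p = 0.000286). *Itgb5* rose on withdrawal from 128 to 283 CPM (log2 change 1.15), and 3 receptor genes rose and 2 fell in that contrast.

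Among kinases and scaffolds that bind paxillin or its partners, 6 of 24 rose and 10 fell under dbcAMP (median -0.19), and 8 rose and 6 fell on withdrawal. The Cas-family scaffold *Nedd9* rose from 5.42 ± 3.94 to 91.4 ± 17.1 CPM (SD, n = 3; log2 change 4.02, edgeR adjusted p = 2.28e-05), and *Elmo1*, a partner of Rac exchange factors, from 3.33 to 27.5 CPM (log2 change 2.99). Both remained higher than in undifferentiated cells after withdrawal, at 47.8 and 57.0 CPM. *Tgfb1i1*, which encodes the paxillin relative Hic-5, fell from 46.3 ± 6.78 to 8.57 ± 3.00 CPM (SD, n = 3; log2 change -2.48, edgeR adjusted p = 4.07e-06) and rose to 25.9 CPM on withdrawal. The kinase *Pak1* fell from 125 to 27.4 CPM and rose to 73.5 CPM. *Tgfb1i1* and *Pak1* had the order of stages of *Pxn*, but were named for their large falls and rises. In the same list *Lpxn* and *Pak2* were not called under dbcAMP (log2 changes 0.59 and -0.22, edgeR adjusted p = 0.0801 and 0.0562). *Pak3* fell from 4.89 to 0 CPM.

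Actin linkers had the lowest median of the lists under dbcAMP. Of 13 tested, 3 rose and 9 fell (median -0.86), and between dedifferentiated and undifferentiated cells 1 was higher and 7 lower (median -0.55). Filamin C (*Flnc*), an actin crosslinker, fell from 1980 ± 304 to 194 ± 25.9 CPM (SD, n = 3; log2 change -3.42, edgeR adjusted p = 3.96e-08) and rose to 892 CPM on withdrawal. Testin (*Tes*), a LIM protein that binds zyxin, fell from 521 ± 31.8 to 71.4 ± 7.38 CPM (SD, n = 3; log2 change -2.93, edgeR adjusted p = 1.11e-08) and rose to 311 CPM. Alpha-actinin 1 (*Actn1*), which crosslinks actin and binds vinculin and zyxin, moved the other way. It rose from 42.1 ± 5.71 to 141 ± 26.6 CPM (SD, n = 3; log2 change 1.68, edgeR adjusted p = 5.78e-05) and fell to 30.8 CPM on withdrawal (log2 change -2.19).

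LIM proteins, the domain class of *Zyx*, *Pxn* and *Lmo7*, showed no common direction, with 6 of 17 tested genes higher and 6 lower under dbcAMP (median 0.27) and 6 higher and 7 lower on withdrawal. *Crip2* rose from 76.5 to 231 CPM (log2 change 1.53) and *Fhl1* fell from 72.9 to 24.5 CPM (log2 change -1.63). The zyxin relative *Trip6* fell by 0.89 on the log2 scale under dbcAMP (edgeR adjusted p = 0.000889) and rose by 0.75 on withdrawal. Another zyxin relative, *Lpp*, fell by 0.75 under dbcAMP (edgeR adjusted p = 0.00381) and was not called on withdrawal (log2 change 0.16, edgeR adjusted p = 0.481). In the same list *Limd1* rose by 0.46 under dbcAMP (edgeR adjusted p = 0.000304) and fell by 0.83 on withdrawal (edgeR adjusted p = 1.01e-05). *Ajuba* was not called under dbcAMP (log2 change -0.05, edgeR adjusted p = 0.716). *Limch1*, the nearest relative of *Lmo7*, was not called in any contrast by the edgeR fit to all 9 libraries. It measured 142 ± 51.2, 213 ± 25.0 and 181 ± 3.37 CPM in undifferentiated, differentiated and dedifferentiated cells (SD, n = 3) and had a log2 change under dbcAMP of 0.53 (edgeR adjusted p = 0.0501), which was called without undifferentiated replicate 1 or 3 or differentiated replicate 2 (log2 changes 0.27, 0.70 and 0.63; edgeR adjusted p = 0.0472, 0.0254 and 0.0431). It was also called with library size alone, without a filter, with at least 10 counts in every library and by DESeq2's Wald test (adjusted p = 0.0397, 0.0437, 0.0464 and 0.0352).

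Of 11 genes whose proteins partner SORBS proteins or LMO7, 2 rose and 7 fell under dbcAMP (median -0.33), and 6 rose and 2 fell on withdrawal. Among the falls under dbcAMP was afadin (*Mllt4*), from 0.393 to 0.117 CPM, near the counting floor. The ubiquitin ligase *Cblb* fell from 55 ± 3.14 to 10.7 ± 0.210 CPM (SD, n = 3; log2 change -2.41, edgeR adjusted p = 3.88e-08) and rose to 29.1 CPM. The kinase *Abl1*, a binding partner of the sorbin family, fell from 573 to 246 CPM (log2 change -1.29, edgeR adjusted p = 3.42e-07). After withdrawal *Abl1* was still lower than in undifferentiated cells, at 370 CPM (log2 change -0.68, edgeR adjusted p = 0.000136). *Pvrl1*, the name in the table for nectin 1, whose cytoplasmic tail binds afadin, rose from 37.0 ± 4.40 to 195 ± 7.74 CPM (SD, n = 3; log2 change 2.34, edgeR adjusted p = 2.45e-07) and fell to 56.7 CPM. Alpha-catenin (*Ctnna1*) rose from 706 to 1226 CPM (log2 change 0.73).

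Of 3 tested genes of the DLC family, GTPase-activating proteins that bind tensins, *Stard8* and *Dlc1* rose under dbcAMP and *Stard13* fell, from 722 to 446 CPM. The call of *Dlc1* (log2 change 1.14, edgeR adjusted p = 0.0231) was lost without differentiated replicate 2 or 3 (edgeR adjusted p = 0.0680 and 0.0520). *Stard13* rose on withdrawal to 758 CPM (log2 change 0.78), as the sole call of the 3. In that contrast 3 of the 3 were called without undifferentiated replicate 1, and 2 without undifferentiated replicate 2 or without a filter.

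Contractile actin and myosin genes fell more often than they rose under dbcAMP, with 3 of 19 higher and 12 lower (median -0.44), and 2 higher and 9 lower in dedifferentiated against undifferentiated cells (median -0.26), where 7 were called without undifferentiated replicate 1. Myosin light chain 12a (*Myl12a*) fell from 986 to 301 CPM (log2 change -1.78) and rose to 738 CPM on withdrawal. Non-muscle myosin heavy chain *Myh14* rose from 167 to 555 CPM (log2 change 1.67) and was still higher than in undifferentiated cells after withdrawal, at 314 CPM. Of 4 genes of SRF and its cofactors, 0 rose and 3 fell (median -0.50). *Srf*, the transcription factor of many actin cytoskeleton genes, fell from 85.7 to 56.3 CPM (log2 change -0.66, edgeR adjusted p = 0.00196). On withdrawal *Srf* measured 71.5 CPM (log2 change 0.36, edgeR adjusted p = 0.0574), a change that was called without undifferentiated replicate 1 or 2 (edgeR adjusted p = 0.0215 and 0.0257), without a filter (0.0461) and by DESeq2's Wald test (adjusted p = 0.0486).

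**Figure D5:**
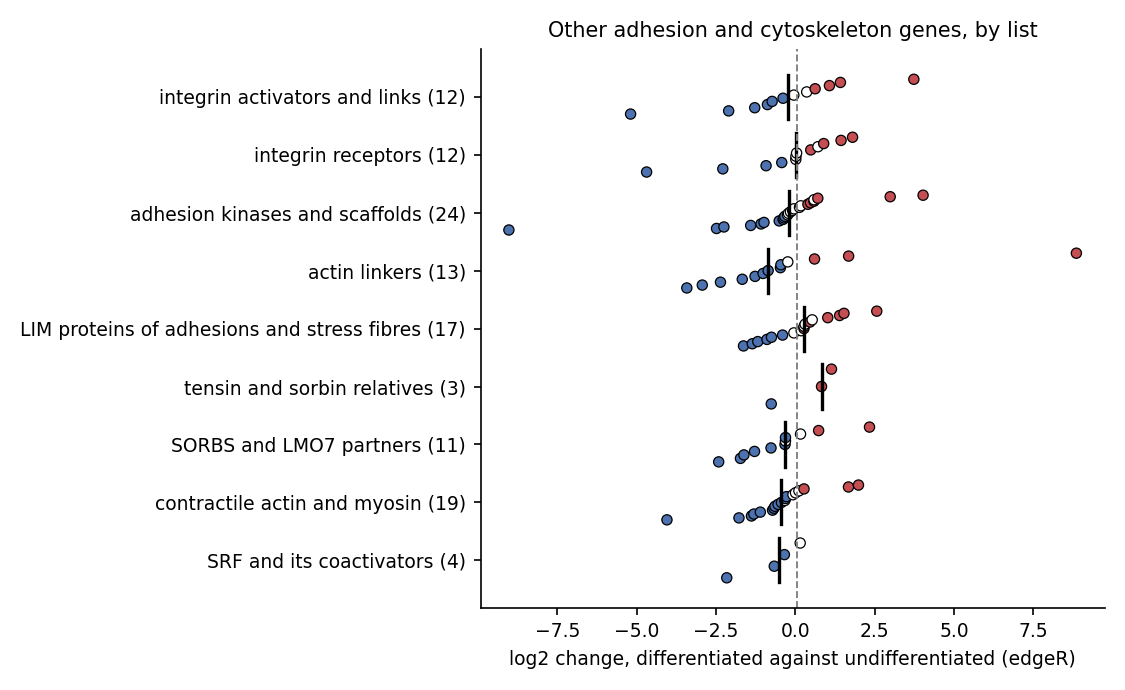
Log2 change under dbcAMP of the tested genes in each of the 9 lists, red where higher, blue where lower and white where not called, with a black bar at each list's median and a dashed line at the median of all genes tested. The medians run from -0.86 for actin linkers to 0.82 for the 3 DLC-family genes tested among the relatives of tensins and sorbins.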

How the data were processed

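Cell mRNA was sequenced from 10 ng RNA per library with a directional kit, per the labels' protocols. The authors deposited gene-level estimated counts, in a table named for salmon's merged output. The submitters' processing notes list FastQC, Trim Galore, cutadapt, STAR, HISAT2, SAMtools, Picard, bedtools, Salmon, MultiQC and DESeq2 1.26.0. The genome build, the strand setting and the Salmon version are not given in the sources used here. Columns were assigned to samples by library code, and replicate numbers are those of the sample titles, which differ from the numbers in the column names. Of all values 1.15% were fractional, and 0 of those of the 9 genes.

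Counts were rounded and tested with edgeR 4.0.16 in R 4.3.3 (filterByExpr with minimum count 10, TMM, quasi-likelihood F test, all 9 libraries in 1 model, Benjamini-Hochberg over 10372 genes). SE is the log2 change divided by the square root of F. The fit was also run on counts simulated from its own estimates, with a small part of the genes changed in differentiated libraries only. Far more genes were called in the real data, so that run does not measure false calls there. CPM is of library totals. Each list names per contrast the 2 called genes of largest rise and fall averaging at least 10 CPM, of which some are described. Nearest relatives were named whether called or not, and the 5 genes of most like pattern (log2 CPM, prior count 2) for *Sorbs2* and for *Lmo7*. Of 140 list genes, 4 were matched through older symbols. The 9 genes and all lists were chosen with earlier results of these data known. Some genes and 1 list are not reported here. Vesicle RNA was not used here. DESeq2 1.42.0, other scalings and filters, a replicate block, the sequencing project and leaving out each library were alternatives.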

Additional observations from a re-analysis of the deposited data

How the results depend on the processing

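Calls among the 7 tested genes numbered 6, 5 and 6 in the contrasts of differentiated with undifferentiated, dedifferentiated with differentiated and dedifferentiated with undifferentiated cells. Leaving out 1 library gave 5 to 7, 4 to 6 and 3 to 6. With replicates 1 and 2 only, which share a sequencing project, 5, 3 and 2 were called in the same order. The calls lost were *Tns1* under dbcAMP and *Sorbs3* and *Vcl* on withdrawal. Between dedifferentiated and undifferentiated cells they were *Tln1*, *Vcl*, *Pxn* and *Tns1*. With all libraries, requiring an absolute log2 change above 1 as well as the adjusted p left 5, 3 and 3. Genes called over the whole table numbered 6179, 4809 and 3045. They numbered 2606 and 1283 in the last 2 contrasts with replicates 1 and 2 only, and 2569, 1613 and 992 with the log2 change above 1. These settings have fewer libraries or a stricter threshold. The log2 change of *Tns3* on withdrawal, never called, ran from -0.10 to 0.05 over the fits that left out a library, and was above 0 without differentiated replicate 1 (0.01) and without dedifferentiated replicate 1 (0.0487). *Tns3* was also called lower in differentiated than in undifferentiated cells with DESeq2's size factors, without a filter, by DESeq2's Wald test and with the 10 most abundant genes left out (adjusted p = 0.0361, 0.0428, 0.0217 and 0.0336). In dedifferentiated cells it was called lower by the Wald test (adjusted p = 0.0186), with those size factors (0.0434) and with the 10 most abundant genes left out (0.0454). Of 507 recomputed log2 changes of the 9 genes, 460 kept direction and call or, for *Sorbs2* and *Lmo7*, stayed within 1 SD. The log2 change of *Lmo7* between dedifferentiated and undifferentiated cells moved to -2.07 without dedifferentiated replicate 1. Scaling moved the median of all genes by at most 0.06 on the log2 scale, and the calls higher in dedifferentiated than in undifferentiated cells from 54.7% to 62.6% with library size alone, and to 48.8% by DESeq2's Wald test, 49.0% with its size factors and 48.9% with the 10 most abundant genes left out.

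Libraries of the same replicate number deviated together in 7 of 9 pairs by a correlation above 0.1 (mean 0.176, from 0.0279 to 0.305). Pairs of other numbers had a mean of -0.0839 (highest 0.104). Each gene was centred on its stage mean, so correlations of other numbers offset those of the same number and are no separate baseline. Dedifferentiated replicate 2 was closest to undifferentiated replicate 3. As 2 pairs fell short and the labels tie no number to a shared culture, the numbers were not treated as pairs. With the replicate block 6325, 5031 and 3256 genes were called, and 7, 5 and 7 of the 7 tested genes. The added calls were *Tns3* lower in differentiated and in dedifferentiated than in undifferentiated cells (edgeR adjusted p = 0.0484 and 0.0492). The block also called *Limch1* under dbcAMP (0.0447), *Srf* on withdrawal (0.0225) and 2 in place of 1 of the 3 DLC-family genes on withdrawal.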
